A study of Mus musculus with 8 samples.

Results

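The genes described here encode the constitutive proteasome, its assembly factors and its regulators, as measured in the mouse melanoma line B16-OVA. B16-OVA is a form of B16F10 that makes ovalbumin, a model antigen. They were taken by gene symbol: the Psma, Psmb, Psmc, Psmd, Psme, Psmf and Psmg genes with a number, together with Pomp and Adrm1, and without Psmb5 to Psmb10, Psme1 and Psme2. The rule found 42 genes among the 57353 rows of the table, and 40 of them had enough reads to be tested. RNA was sequenced from 8 libraries in 2 groups of 4. HMF libraries came from B16-OVA cells co-incubated for 24 h with magnetic rod-shaped micromotors (MagRMs) and then given a high-frequency magnetic field (HMF), and Control libraries came from untreated B16-OVA cells. Cells were collected 6 h later. The labels give both groups the genotype WT and the same treatment tag, so the groups were read from the titles. Micromotors and field were applied together in every HMF library, and their contributions cannot be told apart. The labels do not say if replicates were grown as separate cultures, so the p-values here reflect library-to-library spread that may be technical.

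The proteasome is the chamber in which cells break down proteins marked with ubiquitin. Its core particle is a barrel of stacked rings, in which outer alpha rings gate the entrance and inner beta rings hold the protease sites. A regulatory particle sits on the barrel: its base holds a ring of ATPases that unfold the substrate, and its lid removes ubiquitin. Dedicated chaperones build the core and the base, and other activators can cap the barrel in place of the regulatory particle. In antigen-presenting and interferon-exposed cells, inducible catalytic subunits replace the constitutive ones and change the peptides offered on MHC class I.

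The total count per library was 13973961 to 19295358. Proteasome members together took 0.492% to 0.553% of the counts in HMF libraries and 0.487% to 0.526% in Control libraries, so these ranges overlapped. Melanocyte markers were present, with 7 of 7 tested and a summed level of 12420 to 15230 CPM (edgeR's counts-per-million scale, with library sizes adjusted by TMM) in HMF and 16430 to 18440 CPM in Control. Of these 7, Dct, Tyrp1, Tyr and Mitf fell. Macrophage markers summed to 14.2 to 15.4 CPM in HMF and 8.10 to 11.5 CPM in Control, with Adgre1 at 0 in all libraries. Of the 5 macrophage markers 2 could be tested, and 1 of these, Cd68, rose. Cd68 made up most of the sum, at a mean of 13.8 CPM in HMF and 8.35 CPM in Control. Lyz2, the other tested marker, had a log2 fold change of -0.47 and did not pass. Ptprc had at most 2 counts and Csf1r at most 4 counts in any library. Fibroblast markers summed to 8.08 to 12.1 CPM in HMF and 14.1 to 29.0 CPM in Control. Of these 4 markers 3 could be tested, and 1 of these, Col1a2, fell (log2 fold change -1.49, mean 4.74 CPM in HMF and 13.6 CPM in Control). Col1a1 and Pdgfra had log2 fold changes of -0.62 and -0.52 and did not pass. The T and NK cell markers Cd3e, Cd8a and Nkg7 and the keratinocyte markers Krt5 and Krt14 were at 0 counts throughout. The part of these marker differences in the results below was not tested. In bulk RNA, fewer cells of a type and less RNA per cell cannot be told apart.

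HMF and Control libraries were compared gene by gene. Of the 40 tested members, 9 rose and none fell (edgeR quasi-likelihood test, Benjamini-Hochberg adjusted p below 0.05 over 15082 genes, n = 4 per group). The 9 were 4 of the 7 tested alpha ring genes (Psma2, Psma3, Psma4 and Psma5), the beta ring gene Psmb2, the lid gene Psmd8, the core assembly factors Psmg4 and Pomp, and the activator gene Psme3. No ATPase gene, no other base gene and no base chaperone gene passed. The rises were small, from 1.17-fold (Psme3) to 1.40-fold (Psmg4).

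Over all genes tested 26.7% changed, of which 13.7% of all genes rose and 13.0% fell, while 9 of 40 members is 22.5%. HMF and Control libraries did not overlap for 11 of 40 members, 10 higher and 1 lower in HMF, a share of 27.5%. Over all genes that share was 29.1%, with 14.7% higher and 14.4% lower. The median log2 fold change was 0.07 over the members and -0.02 over all genes. Changes beyond 1.2-fold in either direction were seen in 15.0% of the members and 41.6% of all genes. No member went beyond 1.5-fold, whereas 15.2% of all genes did. The members lay higher on the abundance scale than most genes, with a median mean log2 CPM of 6.96 against 4.52 over all genes, and their fold changes had a median SE of 0.0743 against 0.115 over all genes. The absence of falls depended on the scaling. By edgeR 1 member with a negative log2 fold change, Psmd13, had an unadjusted p below 0.05. By DESeq2 10 members rose and none fell, and by limma-voom 9 rose and none fell. Scaling by library size alone gave 8 rises and 1 fall, and limma on the deposited FPKM values gave 5 rises and 1 fall, the fall being Psmd13 in both.

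**Figure D1:**
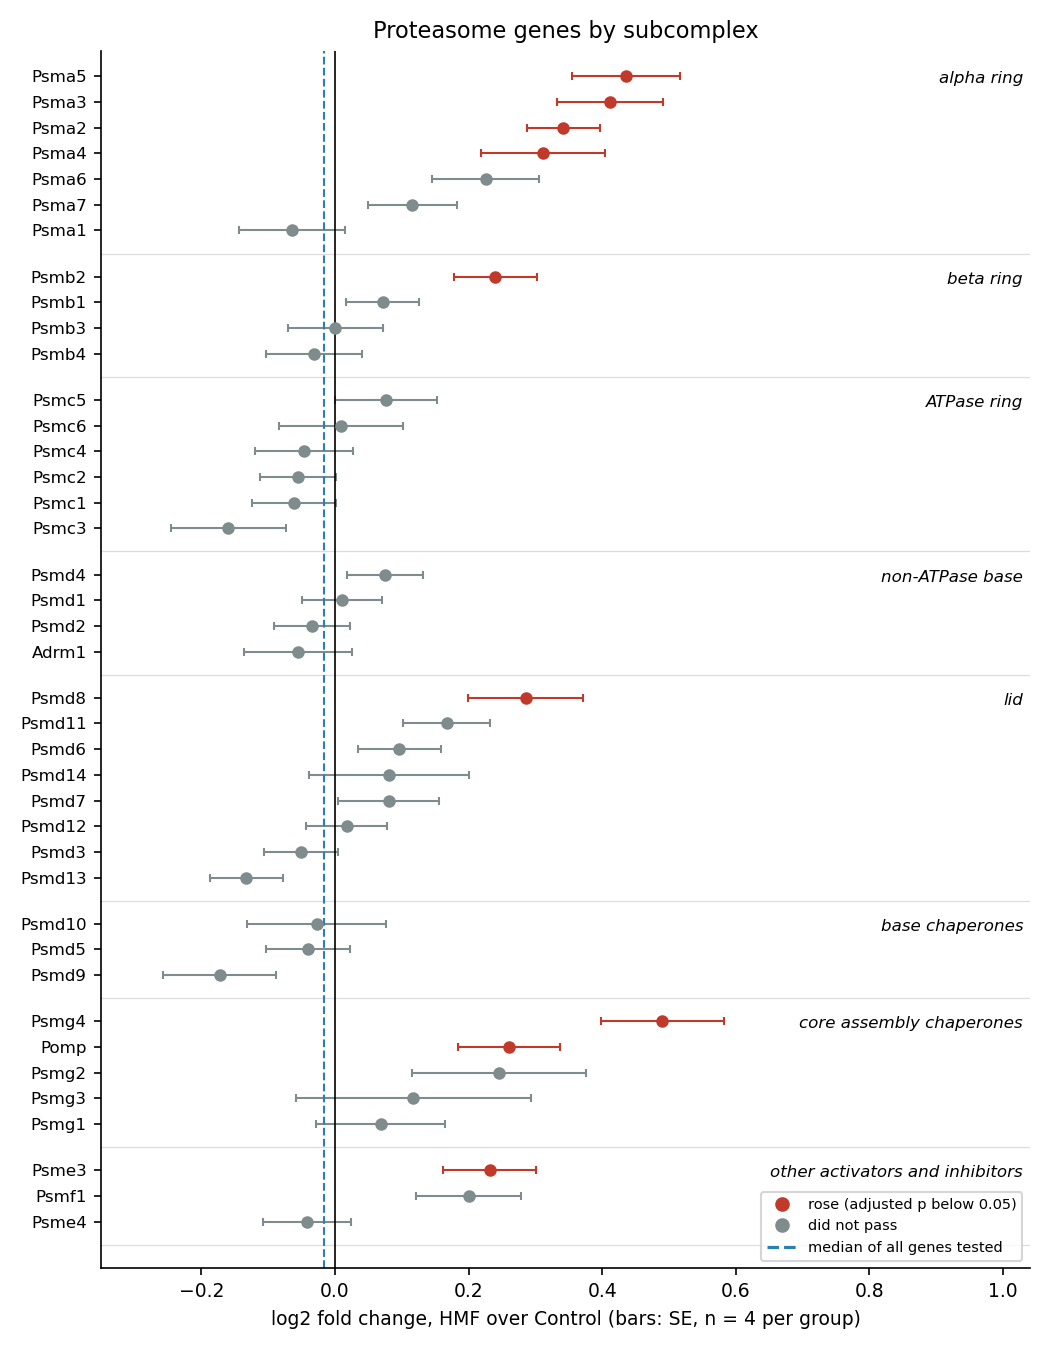
Log2 fold change of HMF over Control (horizontal axis) for the 40 tested proteasome genes, grouped by subcomplex. Points are fitted values with their SE (n = 4 libraries per group), red where the gene rose, and the dashed line is the median of all genes tested. Red points occur in the alpha ring (4), among the core assembly chaperones (2), and once each in the beta ring, the lid and the other activators, and none lies left of 0.

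The alpha ring held the clearest rises. Its 7 tested genes had a median log2 fold change of 0.31. Psma5 was measured at 79.7, 87.7, 85.4 and 102 CPM in HMF 1 to 4, against 70.8, 64.3, 62.1 and 65.2 CPM in Control 1 to 4. The lowest HMF library was above the highest Control library. The log2 fold change was 0.44 ± 0.08 (SE, adjusted p = 0.00233).

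Psma3 had 116, 123, 122 and 141 CPM in HMF 1 to 4 and 102, 101, 85.6 and 90.1 CPM in Control 1 to 4, with no overlap. Its log2 fold change was 0.41 ± 0.08 (adjusted p = 0.00285). Psma2 was the tightest of the set, at 111, 104, 105 and 112 CPM in HMF 1 to 4 and 88.0, 82.0, 84.7 and 87.1 CPM in Control 1 to 4. It rose by 0.34 ± 0.05 (adjusted p = 9.31e-04), and the groups did not overlap. Psma4 had 102, 103, 104 and 125 CPM in HMF 1 to 4, against 93.1, 98.3, 77.1 and 81.5 CPM in Control 1 to 4. The groups were apart by a small margin, between HMF 1 and Control 2. Its log2 fold change was 0.31 ± 0.09 (adjusted p = 0.0293), and the call was lost without HMF 4 (log2 fold change 0.24, adjusted p = 0.0548), without Control 3 (0.26, adjusted p = 0.0833) and without Control 4 (0.28, adjusted p = 0.0847).

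The remaining alpha ring genes did not pass. Psma6 averaged 173 ± 19.2 CPM in HMF and 148 ± 6.65 CPM in Control (SD, n = 4), and its log2 fold change was 0.23 (adjusted p = 0.0586 by edgeR). DESeq2 gave it an adjusted p of 0.0458, and edgeR without HMF 1 gave 0.0194. Psma7 had a log2 fold change of 0.12. Psma1 averaged 95.9 ± 7.63 CPM in HMF and 100.3 ± 8.89 CPM in Control (SD, n = 4), with a log2 fold change of -0.06 and a 95% interval of -0.24 to 0.11. Psma8, which encodes a testis-specific variant of an alpha ring subunit, had 0 counts in all 8 libraries.

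Several alpha ring genes have near-identical copies in the genome, among which reads can be divided. For Psma3, the predicted gene Gm13835 shares 685 bases at 100% identity, and the copies together took 25.1% to 29.5% of the joint count. Gm13835 itself rose, with a log2 fold change of 0.47 ± 0.10 (adjusted p = 0.00597). For Psma5 the copies took 10.9% to 13.7%, and for Psma4 3.73% to 5.51%. When the counts of copies were added to their member, the log2 fold changes were 0.43 for Psma3 (adjusted p = 0.00259), 0.42 for Psma5 (adjusted p = 0.00289) and 0.32 for Psma4 (adjusted p = 0.0267), and 9 members rose, all 9 shared with the call on the deposited counts.

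The 4 tested beta ring genes encode subunits without a protease site. Psmb2 was at 118, 107, 101 and 112 CPM in HMF 1 to 4 and at 95.3, 91.8, 88.9 and 95.3 CPM in Control 1 to 4. All HMF libraries were above all Control libraries. Its log2 fold change was 0.24 ± 0.06 (adjusted p = 0.0151), and it missed the threshold narrowly without Control 3 (0.22, adjusted p = 0.05002).

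Psmb3 averaged 135 ± 11.0 CPM in HMF and 135 ± 7.69 CPM in Control (SD, n = 4), with a 95% interval of the log2 fold change of -0.16 to 0.16. Psmb1 and Psmb4 had log2 fold changes of 0.07 and -0.03. Psmb11, which encodes the catalytic subunit specific to the thymus proteasome, had at most 2 counts in any library and was not tested.

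**Figure D2:**
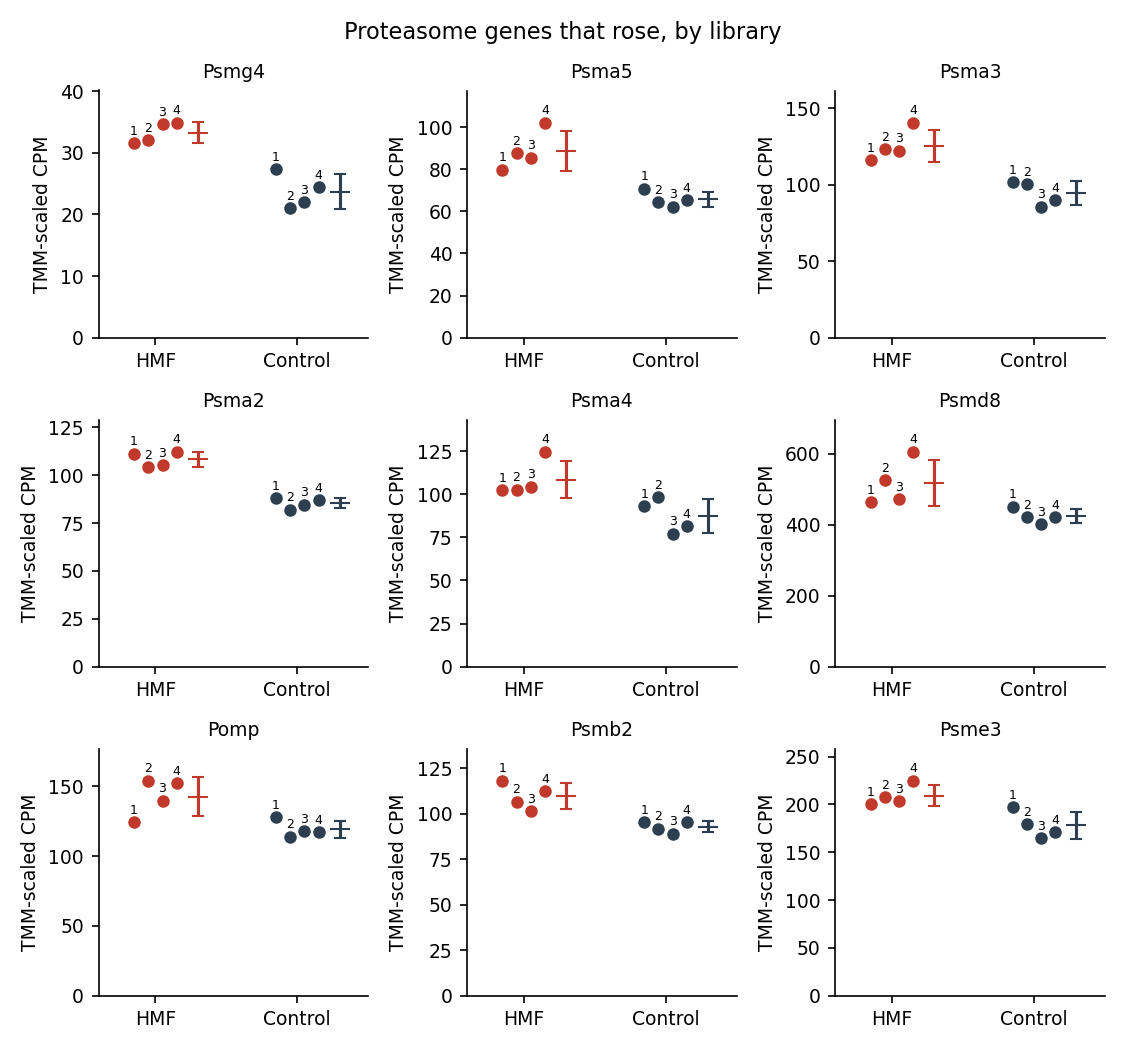
TMM-scaled CPM (vertical axes, from 0) of the 9 proteasome genes that rose, in each HMF library (red) and each Control library (dark). Numbers are replicate numbers, and bars beside the points are the mean and SD of 4 libraries. HMF and Control points are apart in 8 panels and overlap for Pomp, where HMF 1 (124 CPM) is below Control 1 (128 CPM).

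Among the core assembly chaperones, Psmg4 had the highest fold change of all members. Psmg4 pairs with Psmg3 in a chaperone that helps to form the alpha ring. Psmg4 was at 31.5, 32.1, 34.7 and 34.9 CPM in HMF 1 to 4, against 27.3, 21.0, 22.0 and 24.4 CPM in Control 1 to 4. The groups did not overlap, and Control 1 was the closest to HMF. The log2 fold change was 0.49 ± 0.09 (adjusted p = 0.00249), with a 95% interval of 0.29 to 0.69.

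Its partner gene Psmg3 was the least abundant tested member. Psmg3 had 65, 94, 76 and 133 counts in HMF 1 to 4 and 97, 90, 71 and 93 counts in Control 1 to 4. It averaged 5.85 ± 1.17 CPM in HMF and 5.43 ± 0.869 CPM in Control (SD, n = 4), with a log2 fold change of 0.12 ± 0.18 (adjusted p = 0.669). Its 95% interval of -0.27 to 0.50 includes the value of Psmg4.

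Pomp encodes a maturation factor that guides beta ring assembly and is digested by the finished proteasome. It had 124, 154, 140 and 152 CPM in HMF 1 to 4 and 128, 114, 118 and 117 CPM in Control 1 to 4. HMF 1 lay inside the Control range. The log2 fold change was 0.26 ± 0.08 (adjusted p = 0.0266). The call of Pomp was lost without HMF 2 (adjusted p = 0.0854), HMF 4 (0.0505), Control 2 (0.0581), Control 3 (0.0663) or Control 4 (0.0709).

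The genes of the other alpha ring chaperone, Psmg1 and Psmg2, did not pass. The log2 fold change was 0.07 ± 0.10 for Psmg1 (adjusted p = 0.645) and 0.25 ± 0.13 for Psmg2 (adjusted p = 0.196). Psmg2 passed when Control 1 was left out (0.37, adjusted p = 0.0427). All 5 core chaperone genes had a positive fold change, with a median of 0.25 on the log2 scale.

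The chaperones of the base gave negative fold changes, none past the test. Psmd9 averaged 32.2 ± 2.35 CPM in HMF and 36.3 ± 3.25 CPM in Control (SD, n = 4), the lowest log2 fold change of the members at -0.17 ± 0.08 (adjusted p = 0.16). Psmd10, which encodes the chaperone gankyrin, averaged 14.8 ± 1.85 CPM in HMF and 15.1 ± 0.513 CPM in Control (log2 fold change -0.03). Psmd5 had a log2 fold change of -0.04.

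Promoter sequence was set beside these values for the gene with the highest and the gene with the lowest fold change, Psmg4 and Psmd9, and for Psma3 as an alpha ring gene that rose. The sequences are RefSeq promoters of build GRCm38.p6, from 250 bases before to 50 bases after the start, on the strand of the gene. They lie at chr13:34162714-34163013 (plus strand) for Psmg4, chr5:123227940-123228239 (plus strand) for Psmd9 and chr12:70974373-70974672 (plus strand) for Psma3. Capitals mark matches, on either strand, to the core of the antioxidant response element (TGACNNNGC, bound by Nfe2l1 and Nfe2l2 with small Maf proteins), the CCAAT box (CCAAT), the core of the interferon-stimulated response element (TTTC, any 2 bases, TTTC) and the gamma-activated site (TTCNNNGAA).
Psmg4: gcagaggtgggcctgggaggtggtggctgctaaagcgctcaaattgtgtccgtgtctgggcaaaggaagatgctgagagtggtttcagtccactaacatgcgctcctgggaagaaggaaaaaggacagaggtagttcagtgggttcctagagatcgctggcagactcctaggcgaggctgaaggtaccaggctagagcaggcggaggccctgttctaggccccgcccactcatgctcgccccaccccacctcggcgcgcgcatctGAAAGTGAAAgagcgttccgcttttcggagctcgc
Psmd9: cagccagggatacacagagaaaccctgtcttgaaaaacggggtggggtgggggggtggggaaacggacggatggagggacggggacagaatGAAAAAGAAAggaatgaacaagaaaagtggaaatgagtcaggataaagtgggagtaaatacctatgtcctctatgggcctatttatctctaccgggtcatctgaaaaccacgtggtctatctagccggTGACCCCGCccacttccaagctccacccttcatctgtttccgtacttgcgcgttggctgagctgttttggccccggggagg
Psma3: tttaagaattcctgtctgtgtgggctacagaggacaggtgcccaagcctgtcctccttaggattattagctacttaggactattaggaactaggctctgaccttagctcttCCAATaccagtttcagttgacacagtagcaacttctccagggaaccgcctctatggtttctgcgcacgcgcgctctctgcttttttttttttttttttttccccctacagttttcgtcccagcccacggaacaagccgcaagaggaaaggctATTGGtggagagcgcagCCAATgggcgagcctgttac

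Psmg4 had a match to the interferon-stimulated core that begins 15 bases after the start. Psmd9 had a match to the same core 159 bases before its start and a match to the antioxidant core 31 bases before it. Psma3 had 3 CCAAT matches, which begin 139 bases before its start and 13 and 30 bases after it. It had no match to the other motifs. RefSeq promoters were found for 35 of the 42 members, in 37 windows. The antioxidant core was in 13.5% of member windows (5 genes) and 12.4% of all 32851 windows, and the CCAAT box in 37.8% of member windows and 37.4% of all windows. None of the 8 matched genes that rose had the antioxidant core, and 5 of the 26 matched genes that did not pass had it (Adrm1, Psmc6, Psmd12, Psmd9 and Psme4). With 12.4% of all windows holding this core, 0 of 8 is not read as a difference. For the CCAAT box the counts were 3 of 8 and 10 of 26. The interferon-stimulated core was in 10.8% of member windows and 3.44% of all windows. It was found in Psmg4, which rose, and in Psmb3, Psmd4 and Psmd9, which did not pass. The gamma-activated site was in 5.41% of member windows and 8.30% of all windows. Matches of different motifs were counted separately, also where they overlap.

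In the regulatory particle, 1 of 18 genes rose. It was Psmd8, a lid gene whose product is needed to join lid and base, and the most abundant member. Psmd8 was at 463, 525, 473 and 605 CPM in HMF 1 to 4, against 451, 422, 402 and 421 CPM in Control 1 to 4. The groups did not overlap, with HMF 1 close to Control 1. The log2 fold change was 0.29 ± 0.09 (adjusted p = 0.0314). The call of Psmd8 was lost without HMF 2 (adjusted p = 0.0788), Control 2 (0.0558), Control 3 (0.0867) or Control 4 (0.0742).

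Psmd11 and Psmd13, both lid genes, had groups that did not overlap without passing the test. They are named for that reason, after their values were seen. Psmd11 averaged 143 ± 10.1 CPM in HMF and 127 ± 5.52 CPM in Control (SD, n = 4), with a log2 fold change of 0.17 ± 0.06 (adjusted p = 0.0809). Psmd13 went the other way, at 65.4, 68.0, 68.3 and 71.0 CPM in HMF 1 to 4 and 74.1, 74.1, 78.0 and 72.8 CPM in Control 1 to 4. All of its HMF libraries were below all Control libraries. Its log2 fold change was -0.13 ± 0.05 (adjusted p = 0.1001), and Psmd13 passed as a fall when libraries were scaled by size alone (-0.18, adjusted p = 0.0345). Psmd13 shares 342 of its 3377 exon bases with Sirt3 on the opposite strand, which had 127 to 200 counts, and whether reads were counted by strand is not stated.

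The other lid genes stayed close to 0. Psmd12 averaged 101 ± 6.00 CPM in HMF and 99.7 ± 3.44 CPM in Control (SD, n = 4; log2 fold change 0.02). Psmd14, which encodes the deubiquitinase of the lid, averaged 80.0 ± 11.5 CPM in HMF and 75.8 ± 11.4 CPM in Control (SD, n = 4; log2 fold change 0.08 ± 0.12). Psmd6, Psmd7 and Psmd3 had log2 fold changes of 0.10, 0.08 and -0.05.

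The base was close to 0 throughout. The 6 ATPase genes had log2 fold changes from -0.16 (Psmc3) to 0.08 (Psmc5), with a median of -0.05 and 0 passing the test. None had an unadjusted p below 0.05. Psmc3 was at 165, 183, 157 and 196 CPM in HMF 1 to 4 and 211, 211, 179 and 183 CPM in Control 1 to 4, and the groups overlapped. Its log2 fold change was -0.16 ± 0.09 (adjusted p = 0.204), with a 95% interval of -0.35 to 0.03. Psmc3 shares 215 of 2607 exon bases with Slc39a13 on the opposite strand, which had 607 to 864 counts. Psmc6 averaged 122 ± 7.45 CPM in HMF and 121 ± 16.6 CPM in Control (SD, n = 4), with a 95% interval of -0.19 to 0.21.

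The 4 non-ATPase base genes ranged from -0.06 to 0.08 on the log2 scale. Psmd4 and Adrm1 encode ubiquitin receptors and Psmd1 and Psmd2 encode large scaffold subunits. Psmd4 averaged 174 ± 9.43 CPM in HMF and 166 ± 3.91 CPM in Control (SD, n = 4; log2 fold change 0.08). Adrm1 averaged 134 ± 15.1 CPM in HMF and 139 ± 6.82 CPM in Control (SD, n = 4; log2 fold change -0.06). Psmd1 had a log2 fold change of 0.01, with a 95% interval of -0.12 to 0.14.

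Among the activators and inhibitors outside the regulatory particle, Psme3 rose. It encodes a nuclear activator that opens the core without ubiquitin. Psme3 was at 200, 207, 204 and 225 CPM in HMF 1 to 4 and 197, 179, 165 and 171 CPM in Control 1 to 4. HMF 1 was just above Control 1. The log2 fold change was 0.23 ± 0.07 (adjusted p = 0.03). The call of Psme3 was lost without HMF 2 (adjusted p = 0.0666), HMF 4 (0.0596), Control 3 (0.0922) or Control 4 (0.086), and with library sizes alone as scaling (0.0555).

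Psmf1, whose product binds and inhibits the core in vitro, averaged 43.9 ± 1.39 CPM in HMF and 38.2 ± 3.81 CPM in Control (SD, n = 4). Its log2 fold change of 0.20 ± 0.08 did not pass (adjusted p = 0.0856), although the groups did not overlap. It passed without Control 1 (0.26, adjusted p = 0.0393). Psme4, which encodes another cap of the core, averaged 69.8 ± 4.66 CPM in HMF and 71.9 ± 3.33 CPM in Control (SD, n = 4; log2 fold change -0.04).

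Members moved together between libraries of the same group. HMF 4, the library with the highest total count, had the highest CPM of the 4 HMF libraries for 32 of 40 members. Control 1 had the highest of the Control libraries for 23. Over all genes, log2 CPM of HMF 4 correlated at 0.9835 to 0.9888 with the other HMF libraries, against 0.991 to 0.9916 among those. The same counts were not taken over all genes, so they are not read as a trait of the members. The median deviation of the members from their group mean was 0.11 on the log2 scale in HMF 4 and 0.08 in Control 1, and it was -0.07 in HMF 1 and -0.06 in Control 3. The part of this shared spread in the group difference was not tested. Without HMF 4, 6 members rose, all among the 9, and the members' median log2 fold change was 0.01. Without Control 1, 11 rose, including the 9. Without Control 3 and without Control 4, 4 and 5 rose. Psma2, Psma3, Psma5 and Psmg4 were called under all 20 alternatives.

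To take out what the members of a library share, each level was expressed relative to the mean log2 CPM of the 40 members in the same library. On this relative scale a gain of some members implies a loss of others by construction. The groups did not overlap for 17 of 40 members, 6 higher and 11 lower in HMF. Over all genes set on the same scale 29.2% did not overlap, 10.4% higher and 18.8% lower. The scale removes spread that the members share, but it adds that spread to genes that do not share it. The share over all genes is therefore not a like yardstick for the members. The 6 higher members were Psma2, Psma3, Psma5, Psmd8, Psme3 and Psmg4, all of which had risen. The 11 lower ones included 4 ATPase genes (Psmc1, Psmc2, Psmc3 and Psmc4), Psmd2, Psmd3, Psmd13, Psma1, Adrm1 and the base chaperone genes Psmd5 and Psmd9. Psma5 stood at -0.24 to -0.08 in HMF and -0.56 to -0.47 in Control on this scale. Psmc1 stood at 1.19 to 1.30 in HMF and 1.38 to 1.42 in Control.

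The balance between subcomplexes was taken within each library as a ratio of summed CPM. The ATPase ring, where no gene passed, was the common denominator. That choice rests on the gene test of the same counts, so the ratios restate those fold changes and are no separate support. For 4 of the 7 other subcomplexes the HMF ratios lay above the Control ratios, and for 3 the groups overlapped. The alpha ring over the ATPase ring was 0.873, 0.868, 0.945 and 0.926 in HMF 1 to 4, against 0.762, 0.710, 0.759 and 0.752 in Control 1 to 4. The highest Control library was below the lowest HMF library, and this held when any 1 of the 13 genes in the ratio was left out. The core assembly chaperones gave 0.232 ± 0.0114 in HMF and 0.188 ± 0.0113 in Control (SD, n = 4), without overlap, also with any 1 of the 11 genes left out.

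In the lid and among the other activators and inhibitors, the full separation was lost when 1 gene was left out. The lid over the ATPase ring was 1.31 ± 0.0386 in HMF and 1.17 ± 0.0508 in Control (SD, n = 4). Without Psmd8 the lid ratio was 0.786, 0.785, 0.815 and 0.797 in HMF 1 to 4 and 0.745, 0.710, 0.785 and 0.765 in Control 1 to 4. The groups then overlapped by a hairline, with HMF 2 at 0.7849 and Control 3 at 0.7854. The other activators and inhibitors gave 0.325 ± 0.0171 in HMF and 0.281 ± 0.0122 in Control (SD, n = 4), and the groups overlapped without Psme3.

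The remaining ratios overlapped between groups. For the beta ring the range was 0.624 to 0.651 in HMF and 0.544 to 0.639 in Control, and for the non-ATPase base 0.766 to 0.814 in HMF and 0.715 to 0.8004 in Control. The base chaperones ranged from 0.0897 to 0.0994 in HMF and from 0.0881 to 0.103 in Control. Over all 28 pairs of subcomplexes, 18 did not overlap between groups and 10 did. The pairs reuse the same sums and are not independent. No such share was taken for sums of other genes, so whether these counts are unusual cannot be said. These sums are counts and not per length, so only their difference between groups is read, and they were given no test because the genes were chosen with results known.

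**Figure D3:**
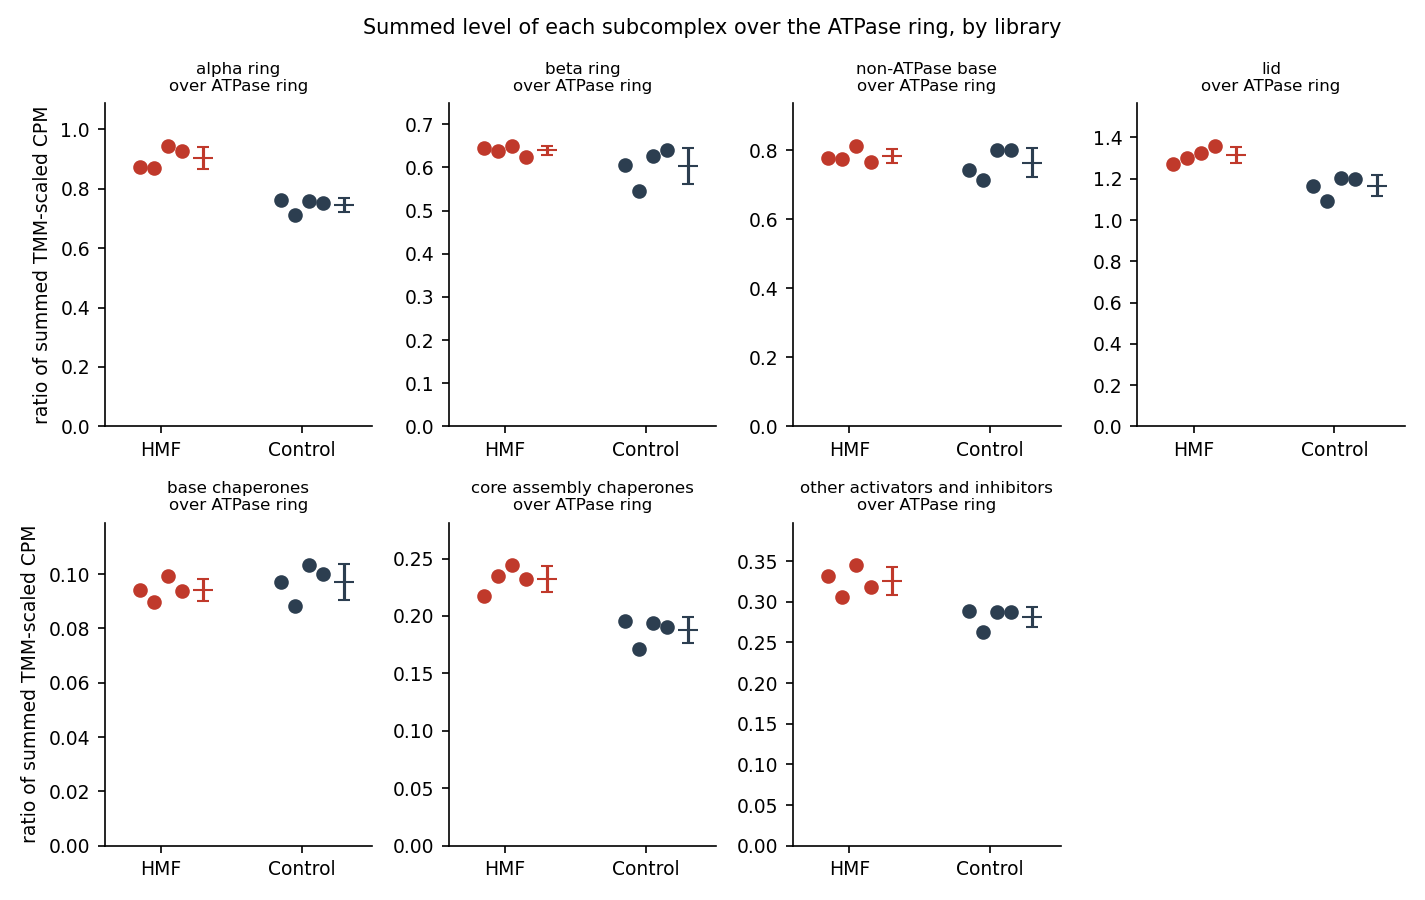
Summed TMM-scaled CPM of each of 7 subcomplexes over that of the ATPase ring (vertical axes, from 0) in each HMF library (red) and each Control library (dark), with mean and SD of 4 libraries. HMF points lie above Control points in 4 panels, including the alpha ring at 0.868 to 0.945 in HMF and 0.710 to 0.762 in Control, and overlap with them in the panels of the beta ring, the non-ATPase base and the base chaperones.

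Levels between genes were compared on the deposited FPKM values, which are per length. For 41 of 41 members with a value, the length behind them equals all exons of the GENCODE M21 gene merged, so genes with long rarely used exons read low. Tested members spanned from 1.98 FPKM in HMF and 1.90 FPKM in Control (Psmg3) to 166 FPKM in HMF and 141 FPKM in Control (Psmd8). On this scale structural subunits were not at equal levels. In the alpha ring Psma6 stood at 137 FPKM in HMF and 121 FPKM in Control and Psma2 at 29.0 FPKM in HMF and 23.6 FPKM in Control. In the ATPase ring Psmc5 was at 126 FPKM in HMF and 123 FPKM in Control, and Psmc2 at 24.2 FPKM in HMF and 26.0 FPKM in Control. The lengths used were 1234 bases for Psma6 and 3673 for Psma2, and 1394 for Psmc5 and 5031 for Psmc2. In CPM the gaps were smaller, with HMF means of 173 for Psma6 and 108 for Psma2, and 179 for Psmc5 and 124 for Psmc2. The size of these differences therefore depends on the lengths. Chaperones of the base were lower, at 4.36 to 9.88 FPKM in HMF and 5.07 to 10.4 FPKM in Control. Among core chaperones, Psmg4 was highest at 58.9 FPKM in HMF and 43.2 FPKM in Control. That order rests on lengths of 555 bases for Psmg4 and 5216 for Pomp. In CPM Pomp was higher, at 143 against 33.3 for Psmg4 in HMF and 119 against 23.7 in Control.

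The catalytic subunits, which the members leave out, set the scale for these changes. None of the 3 constitutive catalytic genes passed: Psmb5, Psmb6 and Psmb7 had log2 fold changes of -0.02, 0.12 and -0.01. All 5 genes of the inducible set rose (Psmb8, Psmb9, Psmb10, Psme1 and Psme2), with a median log2 fold change of 1.69. Psmb10 was at 167 ± 25.5 FPKM in HMF and 32.2 ± 1.86 FPKM in Control (SD, n = 4), while Psmb7, the subunit it replaces, was at 22.2 ± 1.41 FPKM in HMF and 23.1 ± 1.69 FPKM in Control. The highest fold change among the members, 1.40-fold for Psmg4, was below the lowest of the inducible set, 2.28-fold for Psme1. These genes are set side by side, and the difference between the sets was not tested.

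**Figure D4:**
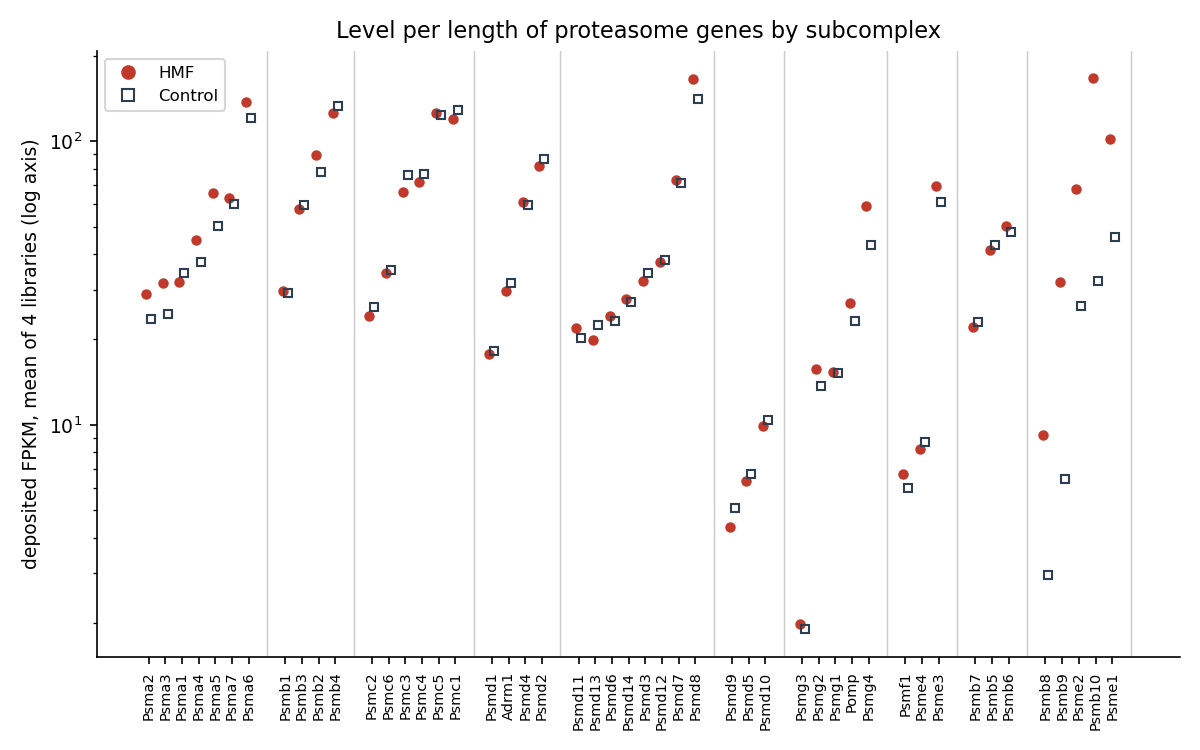
Mean deposited FPKM of 4 libraries (log axis) for the 40 tested proteasome genes by subcomplex, followed by the catalytic genes Psmb5 to Psmb7 and the inducible genes. HMF values are filled circles and Control values open squares. The pairs lie close together for the members, and are far apart for the inducible genes at the right, with Psmb10 at 167 in HMF and 32.2 in Control.

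Genes that work with the proteasome were mixed. Of 17 tested genes for bound enzymes, ubiquitin shuttles and further assembly or scaffold factors, 4 rose and none fell. By edgeR 8 of the 17 had an unadjusted p below 0.05, as did 5734 of all 15082 genes tested. Nub1, which brings ubiquitin-like conjugates to the proteasome, rose by 0.68 ± 0.07 (adjusted p = 4.13e-05) and Ecpas, a scaffold that tethers core and regulatory particle, by 0.55 ± 0.06 (adjusted p = 9.27e-05). The shuttle genes Ubqln4 and Rad23b rose by 0.30 and 0.23. For Sem1, a small lid subunit that the symbols of the rule leave out, the log2 fold change was -0.16 (adjusted p = 0.196).

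Of 13 tested transcriptional regulators of proteasome genes, 4 rose and 2 fell. Nfe2l1, which raises proteasome genes when proteasomes are impaired, rose by 0.41 ± 0.06, with 574 ± 12.0 CPM in HMF and 431 ± 25.3 CPM in Control (SD, n = 4; adjusted p = 4.75e-04). Nfe2l2 rose by 0.21, its small Maf partner gene Mafk by 0.59 and Stat3 by 0.73. Nfya and Nfyc, which encode subunits of the CCAAT-binding factor, fell by 0.22 and 0.32 on the log2 scale. Over all genes 13.7% rose and 13.0% fell, and the medians of these lists were 0.10 for the bound factors and 0.06 for the regulators.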

How the data were processed

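Polyadenylated RNA was sequenced, per the labels' protocols. Raw counts of reads for each gene were deposited, beside FPKM computed by the authors from those 8 libraries. Trimmomatic, HISAT2 2.0.5, HTSeq, DESeq2 and the build mm10 are listed in the submitters' processing notes, which give neither the role of each tool nor the annotation or strandedness. Counts were scaled by TMM, filtered with filterByExpr and tested with edgeR 4.0.16 (R 4.3.3) quasi-likelihood with group as the only term; SE was obtained by dividing the size of the log2 fold change by the root of F. Benjamini-Hochberg adjustment covered 15082 genes. Intervals of 95% use the t distribution of that fit. DESeq2 1.42.0 and limma 3.58.1 (voom, and log2 of FPKM plus 1 or 0.1) were alternatives. Near-identical copies were transcripts of GENCODE M21 with at least 95% identity over at least 200 bases (blastn 2.17.0). Members, subcomplexes and lists were chosen with earlier results of these data known. The rule for naming took members that passed or were not tested, and the largest and smallest absolute change in each subcomplex; the other members given with values, such as Psma6, Psmd13 and Psmg3, fall outside it and were chosen after their values were seen. Of the genes fixed for the lists, 1 symbol (Paaf1) did not match and was not analysed here. A further list of genes is not reported here. On counts simulated for the HMF and Control comparison (15082 genes) the test recovered 8.00% of genes at a 1.25-fold change. It recovered 60.0% at 1.5-fold and 88.0% at 2-fold, with 8 false calls among 136. The simulation changed 50 genes at each fold, picked at random, while 4030 genes were called in the data. With fewer changed genes the adjusted threshold is stricter, and the members had a smaller median SE than all genes. These shares are therefore no measure of recovery among the members. Figures were drawn with Python 3.11.15 and matplotlib 3.10.9.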

Additional observations from a re-analysis of the deposited data

Results flagged for a closer look

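The gap between the most extreme library and its neighbour, over the range of the group, was set against Dixon's 95% critical value in 98 groups of 4: each tested member in each group, and the summed CPM of the members and of each subcomplex. The value was exceeded in 4, and chance alone exceeds it in about 1 in 20. HMF 4 stood apart from the other HMF libraries for Psma4 (gap over range 0.904, highest 125 CPM), Psmd14 (0.873, highest 97.1 CPM) and Psmd5 (0.879, against a lowest HMF value of 45.2 CPM). Control 1 stood apart for the summed level of the core assembly chaperones (0.888, with 210 CPM against a lowest Control value of 185 CPM).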

How the results depend on the processing

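The 9 rises and 0 falls among members became 8 and 1 with library size alone as scaling, 5 and 1 on log2(FPKM + 1), 5 and 1 on log2(FPKM + 0.1), 5 and 0 with the replicate number as a block, and 4 rises at an adjusted p below 0.01, where all genes gave 1239 rises and 1049 falls. Leaving out each library gave 4 (without Control 3) to 11 member rises; the cause was not tested. The labels do not say that the replicate numbers pair the samples. Deviations from the group mean of same-numbered libraries had correlations of -0.265, -0.0793, 0.225 and -0.319 for numbers 1 to 4. These values cannot settle how the samples were handled, so the block result bears on a shared number only. The alpha ring median stayed between 0.24 and 0.35 and that of the core chaperones between 0.16 and 0.30 on the log2 scale, while the ATPase median stayed between -0.10 and -0.01. The beta ring, at -0.01 to 0.07, and the non-ATPase base, at -0.06 to 0.02, spanned 0. With 4 libraries a group, members near 1.2-fold fell on both sides of the threshold. Psme3 at 1.17-fold passed and Psmg2 at 1.19-fold did not. No limit of detection was measured for the members. Adding the counts of copies was chosen after the data were seen.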
